A study of Mus musculus with 12 samples.

Results

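The respiratory chain subunits are the genes of complexes I to IV of the mitochondrial electron transport chain and of complex V, the ATP synthase. Members were taken by gene symbol from the authors' deposited comparison table: Ndufa, Ndufb, Ndufc, Ndufs and Ndufv followed by a digit, Sdha to Sdhd, and names that begin with Uqcr, Cox4 to Cox8, Atp5, mt-Nd, mt-Co, mt-Cytb or mt-Atp. The rule found 84 of the 13703 genes in that table, 76 encoded in the nucleus and 8 in mitochondrial DNA. The rule itself used names and no measured value, but it could reach only genes that the authors kept in that table. A further 22 names of the same form stood only in the larger count table of 49315 genes. Each had a low count, from 0 to 118 over the 12 libraries. Ndufa4 and Ndufa4l2 were placed with complex IV, where the Ndufa4 protein is found. Cox7a2l, which joins complexes III and IV, and Atp5s, a factor that acts on ATP synthase, carry matching names without being core parts of a complex.

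The study compared pancreatic islets of 2 groups of female NOD/ShiLtJ wild-type mice, a strain that develops autoimmune diabetes. Anti-CD3 mice received an antibody to the CD3 part of the T cell receptor, at 2.5 mg/kg once weekly over 4 weeks, and IgG mice received control IgG on the same schedule. All mice were 9 weeks old with normal blood glucose when dosing began, and islets were freed by collagenase P given through the bile duct 2 to 3 days after the final dose. Poly(A) RNA was sequenced as read pairs from 6 anti-CD3 and 6 IgG libraries. The labels do not say whether a library came from 1 mouse or several, so a p-value reflects only how far these samples spread.

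The respiratory chain passes electrons from NADH and succinate to oxygen and pumps protons across the inner mitochondrial membrane, and ATP synthase uses the proton gradient to make ATP. Its subunits come from both genomes: mitochondrial DNA encodes a few membrane subunits at the catalytic core, and nuclear genes encode the rest and every subunit of complex II. In beta cells, ATP made by this chain links glucose uptake to insulin release. The transcription factors NRF1, YY1 and the ETS family protein GABP (also called NRF2) are known to bind the promoters of many nuclear subunit genes.

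Promoters were read because the nuclear members lay on the same side of zero, as described below. RefSeq promoter sequences on GRCm38.p6 matched 62 of the 76 nuclear members by symbol, and the 250 bases before each start were searched on both strands for CGCATGCG (the core of an NRF1 site, which is its own reverse complement), AAGATGGCG (YY1) and CCGGAAG (ETS). No 2 sites overlapped among those shown. The NRF1 letters stood in a promoter of 7 of the 62 members (11.3%), against 1.75% of 27025 genes. Those 27025 are all genes with a promoter sequence and are not limited to the genes tested here. The YY1 letters stood in 1 (1.61%, against 0.710%) and the ETS letters in 12 (19.4%, against 7.83%). Each NRF1 and YY1 match is shown in 30 bases. The ETS sites of Atp5j and Sdhd, members whose groups did not overlap, are shown as well. Atp5j held all 3 motifs before a start within its annotated gene, and 0 before the start at the gene's end (chr16:84835626-84835875). Of the 250 bases searched, 250 for that Atp5j promoter with motifs and 186 for Ndufa8 lay in annotated exons of any gene. The motifs of Ndufa8, Atp5g2 and Atp5k also lie within the annotated gene. Capitals mark the motif and letters run 5′ to 3′ on the gene's strand.
Ndufa8 (chr2:36049339-36049368, minus strand, NRF1 site from 9 bases before the start): gcgcttgcgcgtcgctggagaCGCATGCGc
Ndufa11 (chr17:56717692-56717721, plus strand, NRF1 site from 59 bases before the start): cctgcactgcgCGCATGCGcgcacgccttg
Cox6a1 (chr5:115349101-115349130, minus strand, NRF1 site from 161 bases before the start): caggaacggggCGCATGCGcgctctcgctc
Atp5g2 (chr15:102671070-102671099, minus strand, NRF1 site from 41 bases before the start): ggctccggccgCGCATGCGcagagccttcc
Atp5k (chr5:108434430-108434459, minus strand, NRF1 site from 49 bases before the start): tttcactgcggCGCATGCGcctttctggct
Atp5l (chr9:44920963-44920992, minus strand, NRF1 site from 241 bases before the start): aaccaataaCGCATGCGcatttcccccact
Atp5j (chr16:84835105-84835134, minus strand, NRF1 site from 147 bases before the start): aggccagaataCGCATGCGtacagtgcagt
Atp5j (chr16:84835046-84835075, minus strand, YY1 site from 88 bases before the start): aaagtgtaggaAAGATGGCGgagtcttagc
Atp5j (chr16:84835020-84835049, minus strand, ETS site from 61 bases before the start): tagctgagggacCCGGAAGcacttaccctc
Sdhd (chr9:50603878-50603907, minus strand, ETS site from 46 bases before the start): accgtctcctgcCTTCCGGttcacgcttca
The promoter of Cox7b, the member with the highest fold change, is shown whole because none of the 3 motifs was found in it. None was found either for Cox7c, Ndufa4, Ndufa5, Ndufa6, Ndufb2, Ndufc2, Ndufs8 and Atp5j2, the remaining members whose groups did not overlap. No match says only that these letters are not in this window.
Cox7b (chrX:106015450-106015699, plus strand, 250 bases before the start): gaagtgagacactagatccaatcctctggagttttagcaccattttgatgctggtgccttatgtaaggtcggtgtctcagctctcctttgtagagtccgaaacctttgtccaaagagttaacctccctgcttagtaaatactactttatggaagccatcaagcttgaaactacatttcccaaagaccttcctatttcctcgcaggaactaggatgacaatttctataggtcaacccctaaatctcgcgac

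Total counts were 10994337 to 19284740 per library in anti-CD3 and 11891132 to 17628347 in IgG. Most reads came from exocrine tissue: 22 acinar marker genes took 66.6% to 70.5% of counts in anti-CD3 and 31.6% to 69.7% in IgG, where IgG 5 (53.9%) and IgG 6 (31.6%) stood apart. Beta cell markers, 9 genes with none at 0, took 0.695% to 1.54% of counts in anti-CD3 and 0.870% to 2.31% in IgG. All 22 acinar markers had a positive fold change (median 0.68 on the log2 scale), while all 8 T cell markers (median -1.31), 4 B cell markers (median -1.34), 5 macrophage markers (median -0.96) and 6 stromal markers (median -1.17) had a negative one. These medians leaned on IgG 5 and IgG 6. Without both, they were 0.32 (acinar), -0.45 (T cell), 0.48 (B cell), 0.00 (macrophage) and -0.82 (stroma). With all 12 libraries, edgeR called none of these markers at an adjusted p under 0.05 (0.0762% of all tested genes passed). DESeq2 called 1 acinar marker higher and 2 stromal markers lower (2.75% of all genes were called higher and 1.22% lower). In these bulk samples fewer cells of a type and less RNA per cell cannot be told apart. What part a change in cell mix has in the values below was not tested.

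The respiratory chain genes lay higher in anti-CD3 islets almost without exception, by a modest amount each. Of 84 members, all of which passed the filter on low counts, 83 had a positive log2 fold change, against 44.8% of the 13115 genes tested. The median was 0.53 over the 84 members, or 1.45-fold, and -0.05 over all tested genes. Only Cox7b and Cox7c passed the test (edgeR quasi-likelihood test, Benjamini-Hochberg adjusted p under 0.05; 0.0762% of all tested genes passed). At an unadjusted p under 0.05, 62 members were higher in anti-CD3, against 9.68% of all tested genes, and 0 were lower, against 8.68%. The 62 were all nuclear genes.

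The number of calls depended on the test. DESeq2 called 27 of the 82 members to which it gave an adjusted p, all of them higher (2.75% of all genes were called higher and 1.22% lower). By the adjusted p of the authors' deposited table, 32 of 81 members passed 0.05, again all higher, against 3.24% of that table's genes higher and 1.31% lower. Limma-voom called 3 (0.32% of all genes called higher and 0.0152% lower). Of single libraries, anti-CD3 2 moved the edgeR count most: without it 22 members passed, and without any of the others between 0 and 1 passed.

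In 11 members every anti-CD3 library lay above every IgG library, against 1.09% of the genes in the comparison table, and 0 members lay wholly lower, against 0.635%. The 11 were Ndufa5, Ndufa6, Ndufb2, Ndufc2 and Ndufs8 of complex I, Sdhd of complex II, Cox7b, Cox7c and Ndufa4 of complex IV, and Atp5j and Atp5j2 of complex V.

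**Figure D1:**
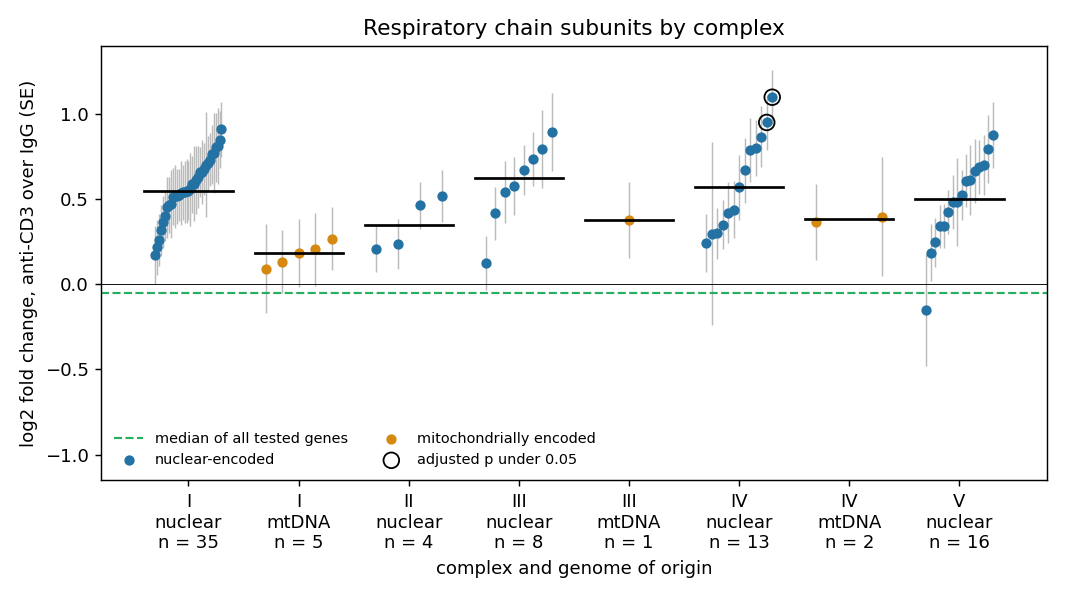
Log2 fold change of each of the 84 members, anti-CD3 over IgG, with its SE as a grey line, by complex and genome of origin; black bars are medians and the dashed line is the median of all tested genes. Circled points are Cox7b and Cox7c, and the only point below zero is Atp5s.

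Both called members belong to complex IV, cytochrome c oxidase, which hands electrons to oxygen. Levels are the authors' normalized counts, each a count over its library's size factor. Cox7b, a small nuclear subunit of the enzyme's membrane part, had 675, 426, 557, 492, 607 and 733 normalized counts in anti-CD3 1 to 6, against 264, 229, 328, 338, 232 and 241 in IgG 1 to 6. The lowest anti-CD3 library, anti-CD3 2, lay above the highest IgG library. Cox7b rose 2.14-fold, a log2 fold change of 1.10 ± 0.16 (SE from the edgeR fit, 6 libraries per group; edgeR adjusted p = 0.0347). Cox7c, another small membrane subunit, had 662, 349, 569, 473, 678 and 687 normalized counts in anti-CD3 1 to 6, against 298, 244, 313, 329.7, 278 and 306 in IgG 1 to 6. Again the groups did not overlap, and anti-CD3 2 was the lowest anti-CD3 library and IgG 2 the lowest of all. Cox7c rose by 0.95 ± 0.16 (SE; edgeR adjusted p = 0.0466). With the replicate number as a block, the log2 fold change was 1.10 for Cox7b and 0.92 for Cox7c, but the calls were lost (edgeR adjusted p = 0.0881 for each). When the acinar score entered as a covariate it was 0.92 for Cox7b and 0.89 for Cox7c, again without a call (edgeR adjusted p = 0.269 and 0.380). In either fit 0 of all genes were called. Leaving out a library moved the adjusted p of Cox7b between 0.0160 and 0.140 and that of Cox7c between 0.0160 and 0.184 by the same edgeR test. On GRCm38, Cox7b (ENSMUSG00000031231) spans 106015700 to 106022450 on the plus strand of chromosome X and Cox7c (ENSMUSG00000017778) spans 86044816 to 86046904 on the minus strand of chromosome 13, and both are protein-coding.

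The other 11 nuclear members of complex IV were all positive without passing the test, and the 13 together had a median of 0.57. Cox7a2, the isoform of subunit VIIa found in most tissues, had 286 (lowest), 432 (median) and 682 (highest) normalized counts in anti-CD3, against 208, 262 and 295 in IgG. All but the lowest anti-CD3 library lay above the highest IgG library, and the log2 fold change was 0.87 ± 0.18 (SE; edgeR adjusted p = 0.0659). Ndufa4 had 298, 416 and 561 in anti-CD3 and 207, 252 and 294 in IgG, with no overlap, at 0.80 ± 0.17 (SE; edgeR adjusted p = 0.0659). Cox4i1, the common isoform of subunit IV, had 1229, 1839.7 and 2597 normalized counts in anti-CD3 and 1076, 1234 and 1815 in IgG, and 3 anti-CD3 libraries lay above all IgG libraries. Its log2 fold change was 0.57 ± 0.19 (SE; edgeR adjusted p = 0.159). Cox5a, at 0.24 ± 0.17 (SE; edgeR adjusted p = 0.450), had 231, 274 and 446 in anti-CD3 and 214, 259 and 293 in IgG, and the groups overlapped widely.

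Tissue-restricted isoforms of complex IV were nearly silent. Over 6 libraries each, Cox4i2, an isoform known from lung, had 16 counts in anti-CD3 and 39 in IgG, and Cox7a1, the heart and muscle isoform of subunit VIIa, had 28 and 60. Cox6a2, another muscle isoform, had 8 counts in anti-CD3 and 34 in IgG, and Cox6b2, known from testis, had 12 and 55. IgG 6 alone held 17 of the 39 Cox4i2 counts, 19 of the 60 of Cox7a1, 18 of the 34 of Cox6a2 and 25 of the 55 of Cox6b2. Cox8b (7 in anti-CD3 and 4 in IgG), Cox7b2 (2 in anti-CD3 and 2 in IgG) and Cox8c (0 in anti-CD3 and 1 in IgG) were at the limit of counting. None of these 7 was in the comparison table or tested. Ndufa4l2, a relative of Ndufa4 known to be induced by low oxygen, was tested at 2.84, 14.1 and 37.9 normalized counts in anti-CD3 and 4.68, 10.7 and 19.7 in IgG. Its groups overlapped, at 0.30 ± 0.54 (SE; edgeR adjusted p = 0.790).

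**Figure D2:**
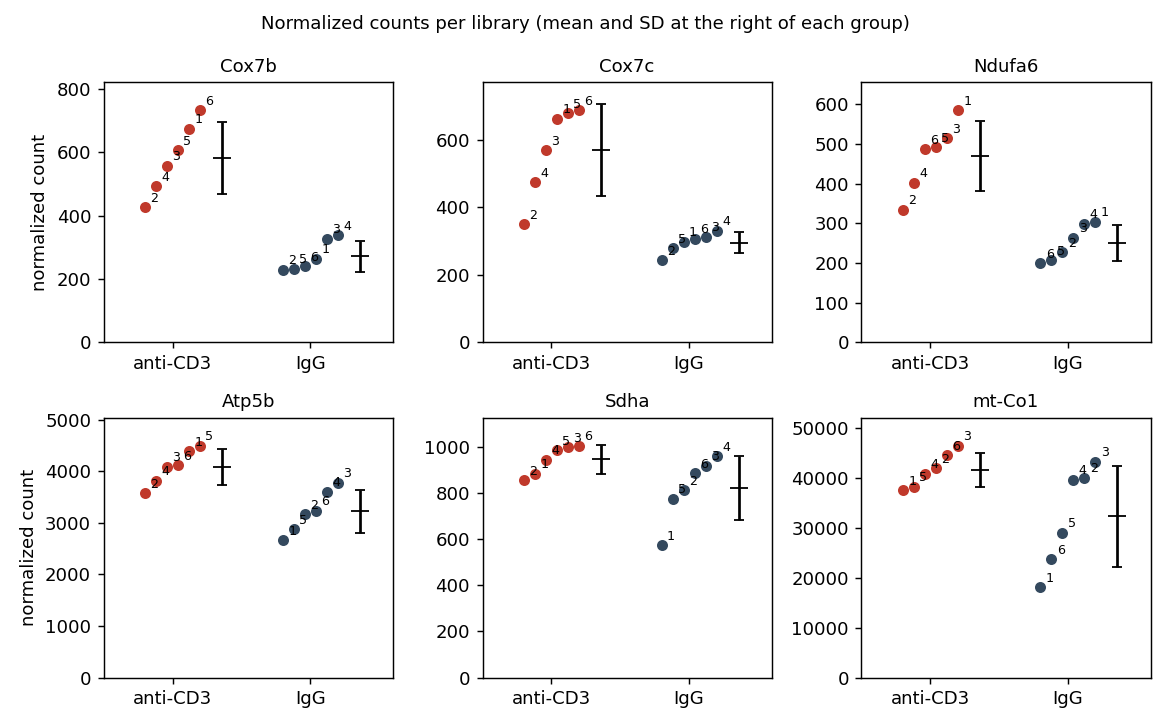
Normalized counts of 6 members in each library, numbered by replicate and sorted by level within a group, with the mean and SD at the right of each group (n = 6 each). Cox7b, Cox7c and Ndufa6 do not overlap between anti-CD3 and IgG, while Atp5b, Sdha and mt-Co1 do.

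Complex I, which takes electrons from NADH, held 35 nuclear members, all positive with a median of 0.55. None passed the edgeR test (0.0762% of all tested genes did). At an unadjusted p under 0.05 in that test 31 were higher, against 9.68% of all tested genes. DESeq2 called 10, all higher, against 2.75% of all genes. The 28 accessory subunits had a median of 0.57 and the 7 nuclear core subunits 0.40. Ndufa6, an accessory subunit that holds an acyl carrier protein, had 334, 489 and 585 normalized counts (lowest, median, highest) in anti-CD3 and 199, 245 and 304 in IgG. The groups did not overlap, and the log2 fold change was 0.91 ± 0.16 (SE; edgeR adjusted p = 0.0557). Ndufa1, a small X-linked subunit of the membrane arm, had 231, 384 and 449 in anti-CD3 and 172, 193 and 243 in IgG, at 0.85 ± 0.17 (SE; edgeR adjusted p = 0.0646). Its lowest anti-CD3 library fell within the IgG range and the other 5 lay above it. Ndufb2, a membrane arm subunit, had 169, 240.4 and 312 in anti-CD3 and 119, 144 and 163 in IgG, without overlap, at 0.73 ± 0.16 (SE; edgeR adjusted p = 0.0659).

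Among the core subunits, Ndufv1, which binds NADH and the flavin, had 555, 629 and 709 normalized counts in anti-CD3 and 341, 519 and 606 in IgG, at 0.37 ± 0.15 (SE; edgeR adjusted p = 0.22). Ndufs1, the large iron-sulfur subunit, had 273, 346 and 462 in anti-CD3 and 247, 285 and 350.0 in IgG, at 0.26 ± 0.15 (SE; edgeR adjusted p = 0.370). In Ndufv1 4 and in Ndufs1 3 anti-CD3 libraries lay above all IgG libraries. Ndufs8, also an iron-sulfur core subunit, had 235, 311 and 379 in anti-CD3 and 155, 199.6 and 217 in IgG. It was the core subunit without overlap, at 0.66 ± 0.15 (SE; edgeR adjusted p = 0.0659). The lowest fold change in the complex was that of the accessory subunit Ndufa10, at 0.17 ± 0.17 (SE; edgeR adjusted p = 0.60), and its groups overlapped (210.0 to 328 in anti-CD3 and 177 to 307 in IgG).

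Complex II, succinate dehydrogenase, also belongs to the citric acid cycle and has 4 nuclear subunits, whose median was 0.35. Sdhd, a membrane anchor, had 302, 371 and 457 normalized counts in anti-CD3 and 232, 283 and 301 in IgG. The groups were narrowly apart, at 0.46 ± 0.14 (SE; edgeR adjusted p = 0.122). Sdhb, the iron-sulfur subunit, had 477, 654 and 789 in anti-CD3 and 370.0, 417 and 575 in IgG, at 0.52 ± 0.15 (SE; edgeR adjusted p = 0.122). Sdha, the flavin subunit that oxidizes succinate, was the nearest to level of the 4. It had 854, 964 and 1005 in anti-CD3 and 574, 849 and 959 in IgG, where IgG 1 was lowest, at 0.21 ± 0.14 (SE; edgeR adjusted p = 0.422). The other anchor, Sdhc, had 221, 254 and 341 in anti-CD3 and 171, 237 and 257 in IgG, with overlapping groups and 0.24 ± 0.15 (SE; edgeR adjusted p = 0.396).

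Complex III, which passes electrons to cytochrome c, had 8 nuclear members with a median of 0.62. Of these 0 passed edgeR's test, against 0.0762% of all tested genes. Uqcrq had 1039.9, 1646 and 2269 normalized counts in anti-CD3 and 503, 887 and 1248 in IgG, at 0.90 ± 0.23 (SE; edgeR adjusted p = 0.0885). Uqcrh, the hinge subunit, had 429, 572 and 776 in anti-CD3 and 313, 347 and 433 in IgG, at 0.74 ± 0.16 (SE; edgeR adjusted p = 0.0659). Uqcrb had 413, 602 and 683 in anti-CD3 and 317, 334 and 460.3 in IgG, at 0.67 ± 0.15 (SE; edgeR adjusted p = 0.0659). In each of these 3 genes 5 anti-CD3 libraries lay above all IgG libraries. Uqcrfs1, the Rieske iron-sulfur protein, was at 0.42 ± 0.16 (SE; edgeR adjusted p = 0.190), with 396, 463 and 554 in anti-CD3 and 252, 347 and 458 in IgG. Uqcrc1, a large core protein, had 401, 490.3 and 556 in anti-CD3 and 344, 425 and 636 in IgG, where IgG 1 was the highest library of all. Its fold change was the lowest of the complex, 0.12 ± 0.16 (SE; edgeR adjusted p = 0.693).

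Of the 16 nuclear members of complex V, 15 were positive (44.8% of all tested genes) and the median was 0.50. None passed edgeR's test, against 0.0762% of all tested genes. The 5 subunits of the catalytic F1 part, central stalk included, had a median of 0.34, and the 10 of the peripheral stalk and membrane part 0.59. Atp5j2, a membrane subunit, had 410.4, 626 and 958 normalized counts in anti-CD3 and 290.1, 347 and 410.0 in IgG. Its lowest anti-CD3 library and highest IgG library were nearly equal, at 0.88 ± 0.19 (SE; edgeR adjusted p = 0.0659). Atp5j, the coupling factor of the stalk, had 488, 726 and 955 in anti-CD3 and 389, 468 and 484 in IgG, again without overlap, at 0.69 ± 0.16 (SE; edgeR adjusted p = 0.0663). Atp5g1, a gene for the proton-carrying c ring, had 675, 916 and 1163 in anti-CD3 and 331, 555 and 756 in IgG, at 0.79 ± 0.20 (SE; edgeR adjusted p = 0.0854). In the F1 part, Atp5a1, the alpha subunit, had 2692, 3215 and 3408 in anti-CD3 and 2140.3, 2365 and 2814 in IgG, at 0.34 ± 0.13 (SE; edgeR adjusted p = 0.184). Atp5b, the catalytic beta subunit, had 3573, 4098 and 4498 in anti-CD3 and 2662, 3201 and 3776 in IgG, also at 0.34 ± 0.13 (SE; edgeR adjusted p = 0.192). In both genes 5 anti-CD3 libraries lay above all IgG libraries. Atp5s was the member with a negative value, -0.15 ± 0.33 (SE; edgeR adjusted p = 0.831), at 17.0, 24.3 and 29.1 normalized counts in anti-CD3 and 13.5, 21.05 and 45.4 in IgG.

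Per kilobase of transcript, the 3 highest nuclear members were the same in both groups. Median normalized counts per kilobase were 3265 in anti-CD3 and 1759 in IgG for Uqcrq, 2469 and 1657 for Cox4i1, and 2139 and 1671 for Atp5b. At the low end stood Atp5s, with 16.4 in anti-CD3 and 14.2 in IgG, and Ndufa4l2, with 15.1 and 11.4.

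The 8 mitochondrially encoded members were positive as well, but closer to level than the nuclear ones. Their median log2 fold change was 0.24 (0.20 without mt-Co3, which had few counts), against 0.55 for the 76 nuclear members, and the difference between both sets was not tested. None had an unadjusted edgeR p under 0.05, against 9.68% of all tested genes higher and 8.68% lower. mt-Co1, the catalytic subunit of complex IV, had 37536, 41296 and 46401 normalized counts in anti-CD3 and 18083, 34288 and 43172 in IgG, at 0.37 ± 0.22 (SE; edgeR adjusted p = 0.387). The IgG spread was wide, with IgG 1 lowest and IgG 2, IgG 3 and IgG 4 within the anti-CD3 range. mt-Cytb, the cytochrome b of complex III, had 20592, 21869.7 and 27172 in anti-CD3 and 10193, 17832 and 23736 in IgG, at 0.38 ± 0.22 (SE; edgeR adjusted p = 0.373).

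The 5 mitochondrial genes for proton-pumping subunits of complex I had a median of 0.18. mt-Nd1 was at 0.27 ± 0.19, mt-Nd4 at 0.20 ± 0.22, mt-Nd2 at 0.18 ± 0.20, mt-Nd6 at 0.13 ± 0.18 and mt-Nd5 at 0.09 ± 0.26 (SE; edgeR adjusted p from 0.446 to 0.871). mt-Nd5 had 5860.2, 8620.3 and 11093 normalized counts in anti-CD3 and 3376, 9139 and 11075 in IgG, so its IgG median was the higher one. mt-Nd6, the mRNA from the other strand of mitochondrial DNA, had 1884, 2132 and 2404 in anti-CD3 and 1078, 2120.2 and 2403 in IgG, and the groups overlapped almost fully. With the acinar score as a covariate the median of the 8 genes was 0.00, against 0.41 for the nuclear members, and without IgG 5 and IgG 6 the medians were 0.09 and 0.47.

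Counts of the mitochondrial mRNAs fell into 2 separate ranges. Of the 13 mRNAs, 7 had 25283 to 454526 counts over the 12 libraries, and mt-Co2, mt-Atp8, mt-Atp6, mt-Co3, mt-Nd3 and mt-Nd4l had 9 to 126. Of these 6, all but mt-Atp8 have an annotated nuclear copy on chromosome 1 with 99.7% to 100% identity over nearly the whole mRNA. Each copy had more counts than the mitochondrial gene (140 to 757). mt-Atp8 had 44 counts, and no annotated copy of it was found. Only annotated transcripts were searched, so a copy in other nuclear DNA was not tested. The sources used here do not give how reads that fit both places were counted. Only mt-Co3 of the 6 was in the comparison table, at 5.68 to 17.5 normalized counts in anti-CD3 and 6.24 to 12.4 in IgG, with a log2 fold change of 0.40 ± 0.35 (SE; edgeR adjusted p = 0.550). Its level is therefore uncertain. Of mt-Nd4, 876 of 1378 bases are also copied without a mismatch, yet 71774 reads were counted to it.

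**Figure D3:**
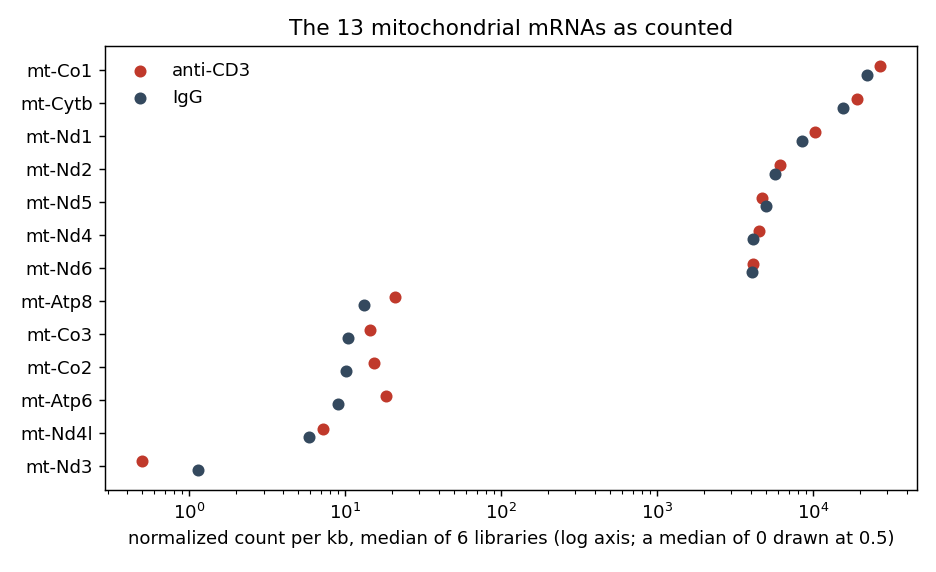
Median normalized count per kilobase (log axis) of the 13 mitochondrial mRNAs in anti-CD3 and IgG, n = 6 each. Of the 13, 7 lie together at high values in both groups and 6 lie far below them, for 5 of which a near-identical nuclear copy is annotated.

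The members were also summarized library by library. The index used here is the median, over the members, of the log2 deviation of a library from each gene's mean of the 12 libraries. For the nuclear members it was 0.65, -0.16, 0.21, 0.05, 0.39 and 0.53 in anti-CD3 1 to 6, and -0.09, -0.41, -0.09, -0.13, -0.47 and -0.39 in IgG 1 to 6. Of the 6 anti-CD3 libraries 5 lay above every IgG library, and anti-CD3 2 lay among them. For the mitochondrial members it was 0.21, 0.24, 0.43, 0.02, -0.10 and 0.18 in anti-CD3 and -0.62, 0.24, 0.28, 0.24, -0.32 and -0.57 in IgG. IgG 2, IgG 3 and IgG 4 were thus as high as most anti-CD3 libraries for the mitochondrial genome, while IgG 1, IgG 5 and IgG 6 were low. Anti-CD3 1 was the highest library for 41 of the 76 nuclear members, and anti-CD3 3 for 6 of the 8 mitochondrial ones. The lowest library was IgG 5 for 24 nuclear members, IgG 6 for 22 and IgG 2 for 19.

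As a share of all counts, the groups differed little. Nuclear members took a median of 0.252% of counts in anti-CD3 (0.215% to 0.279%) and 0.234% in IgG (0.206% to 0.445%, highest in IgG 6, the library with the smallest acinar share). Mitochondrial members took 0.541% in anti-CD3 (0.430% to 0.674%) and 0.650% in IgG (0.365% to 0.840%). Of the counts outside the acinar markers, nuclear members took a median of 0.812% in anti-CD3 (0.659% to 0.911%) and 0.668% in IgG (0.607% to 0.693%), and 5 anti-CD3 libraries lay above all IgG libraries. Mitochondrial members took a median of 1.68% of them in anti-CD3 and 1.77% in IgG. The direction for the mitochondrial genome depended on the scaling and on whether the median or the mean was taken. Its median share was lower in anti-CD3 on either base, its mean share outside the acinar markers was 1.71% ± 0.236 in anti-CD3 and 1.63% ± 0.435 in IgG (SD, n = 6 each), and its normalized fold change was positive.

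**Figure D4:**
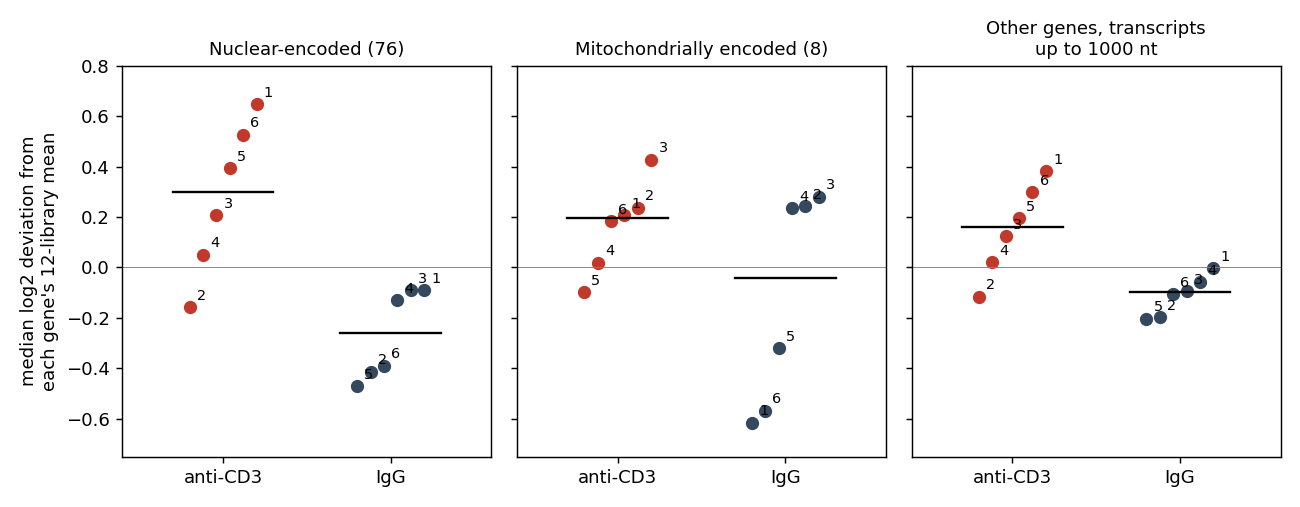
Median log2 deviation of each library from the 12-library mean of each gene, for nuclear members, mitochondrial members and the 1831 other genes with transcripts up to 1000 nt; numbers are replicates and lines are group medians. Anti-CD3 1 is highest for the nuclear members and the other short genes, whereas IgG 2, IgG 3 and IgG 4 lie near the anti-CD3 libraries for the mitochondrial members.

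Transcript length moved with the fold change. Nuclear members have short transcripts, with a median of 685.5 nt (272 to 2900 nt) against 2490 nt over all tested genes. Genes outside the rule had a median log2 fold change of 0.30 for transcripts up to 500 nt, 0.21 for the next class up to 1000 nt, 0.05 up to 2000 nt, -0.08 up to 4000 nt and -0.20 above 4000 nt. The nuclear members stood above the genes of their own length, with medians of 0.67, 0.57, 0.46 and 0.23 in the lower 4 classes (16, 39, 17 and 4 members). Within the members, Spearman's rho between length and fold change was -0.47 across the 76 genes, which share their libraries and are not independent replicates, and across all tested genes it was -0.32. For other genes with transcripts up to 1000 nt the library index ran from 0.38 in anti-CD3 1 to -0.12 in anti-CD3 2, the same order of the 6 anti-CD3 libraries as for the nuclear members. Among IgG libraries it ran from -0.00 in IgG 1 to -0.20 in IgG 5. The order was that of the nuclear members except that IgG 3 and IgG 4 changed places.

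With an offset for transcript length fitted to each library, the nuclear median was 0.29 and 69 of 76 were positive, against 44.4% of genes in that fit. At an unadjusted p under 0.05, 37 were higher, against 8.26% of genes. The medians of the same 4 length classes became 0.27, 0.27, 0.30 and 0.27 for the nuclear members, against -0.08, -0.05, -0.06 and -0.05 for other genes. Cox7b kept its call at 0.89 ± 0.13 (SE; edgeR adjusted p = 0.0333; 0.0229% of genes were called), and Cox7c did not, at 0.60 ± 0.12 (SE; edgeR adjusted p = 0.104). The mitochondrial median was 0.06 with the offset. What part length, RNA fragmentation or library preparation has in these values was not tested beyond this.

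**Figure D5:**
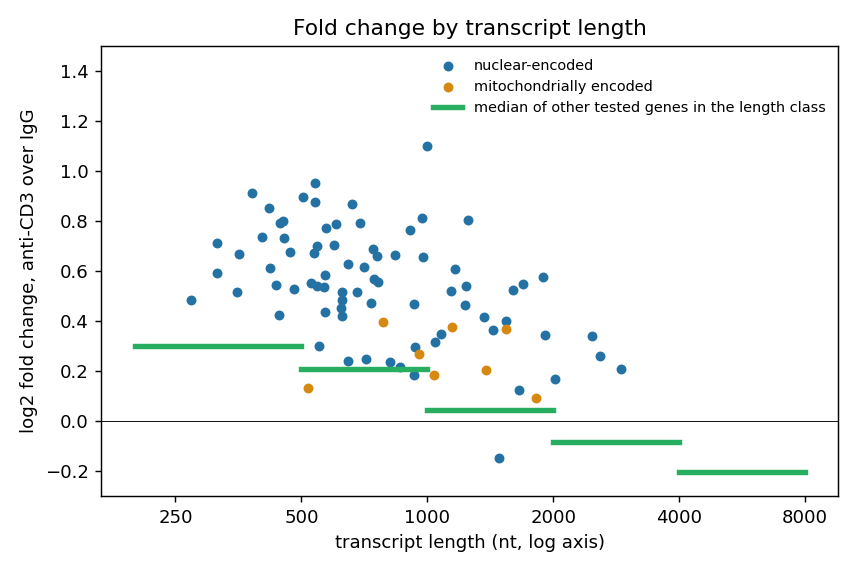
Log2 fold change of each member, anti-CD3 over IgG, against transcript length (log axis); green lines are medians of the other tested genes in 5 length classes, the last without an upper limit. Most nuclear members lie above the line of their class, and the line falls from 0.30 for the shortest to -0.20 for the longest class.

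Related mitochondrial genes outside the rule were less uniform, and edgeR called none of them (0.0762% of all tested genes passed). Higher in anti-CD3 at an unadjusted edgeR p under 0.05 were 10 of 47 assembly factors. Also higher were 1 of 20 genes for mitochondrial DNA expression and biogenesis and 6 of 14 further subunits and carriers. So were 9 of 19 citric acid cycle genes. The share over all tested genes was 9.68%, and none of the listed genes was lower at that level (8.68% over all). DESeq2 called 0 assembly factors or expression genes and 6 genes of the other lists: Usmg5, Higd1a, Etfdh, Coq9, Suclg2 and Pdhb. It called 2.75% of all genes higher and 1.22% lower. Of the 47 assembly factors tested, 36 were positive, against 44.8% of all tested genes, and the median was 0.28. Cox14, which helps to make complex IV, was at 0.62 ± 0.18 (SE; edgeR adjusted p = 0.119), with 131 to 232 normalized counts in anti-CD3 and 92.3 to 148 in IgG. Cox19, a copper-handling assembly factor, was at 0.50 ± 0.16 (SE; edgeR adjusted p = 0.149).

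The regulators of mitochondrial gene expression were near level, with a median of 0.11 over 20 genes. Slirp, which stabilizes mitochondrial mRNAs, was at 0.68 ± 0.24 (SE; edgeR adjusted p = 0.178), and Yy1 at 0.24 ± 0.13 (SE; edgeR adjusted p = 0.322). Tfam, which packages and transcribes mitochondrial DNA, was on the negative side at -0.22 ± 0.16 (SE; edgeR adjusted p = 0.472). Nrf1, at 0.09 ± 0.16, and Gabpa, at 0.03 ± 0.20 (SE; edgeR adjusted p = 0.782 and 0.955), encode the factors whose motifs were searched. Nrf1, Gabpa and Tfam were named after their values were seen.

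Among subunits and carriers that the name rule leaves out, 12 of 14 were positive (44.8% of all tested genes) with a median of 0.32. Higd1a, a small protein that binds complex IV, had 206 to 565 normalized counts in anti-CD3 and 134 to 265 in IgG, at 1.03 ± 0.22 (SE; edgeR adjusted p = 0.0659). Usmg5, a subunit of ATP synthase under an older name, had 298 to 604 in anti-CD3 and 226 to 321 in IgG, at 0.76 ± 0.17 (SE; edgeR adjusted p = 0.0659). Citric acid cycle genes were positive in 16 of 19, beside the same 44.8% of all tested genes, with a median of 0.30. Pdhb, of pyruvate dehydrogenase, was at 0.53 ± 0.14 (SE; edgeR adjusted p = 0.0898), and Suclg2, of succinyl-CoA synthetase, at 0.86 ± 0.24 (SE; edgeR adjusted p = 0.102).

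Close gene copies make some member values uncertain. A near-identical copy elsewhere in the genome (at least 95% identity over at least 150 aligned bases) is annotated for 25 of the 84 members, 20 of them nuclear. Most copies had few counts next to their gene. Ndufs5, however, had 384 counts over the 12 libraries and its copy BC002163 had 1342, and Cox7a2l had 7417 and its copy Gm6969 had 2360. The copies of Cox7c held 137 and 3 counts against 5146 for the gene, and those of Cox7b 6 each against 4978. In addition 31 members overlap a gene on the other strand, and the sources used here do not give the strand setting of the counting.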

How the data were processed

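Islet RNA of 6 anti-CD3 and 6 IgG libraries was sequenced. The build was GRCm38 (mm10) and the tools were STAR 2.5.2b, Trimmomatic 0.36, Subread 1.5.2 (featureCounts) and DESeq2, per the submitters' processing notes, which give no order or options. The sources used here do not give the annotation release, strand setting or treatment of multi-mapping reads. The deposited count table holds raw counts of 49315 genes. The authors' deposited comparison table adds a normalized signal per library, a log2 fold change and a p-value per gene. The signal equalled each library's counts over 1 constant size factor, and the direction of the log2 fold change was anti-CD3 over IgG by the table's own means. Adjusted p-values that the authors left as NA (2935 genes) stayed NA.

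Groups came from sample titles. Counts were fitted in R 4.3.3 with edgeR 4.0.16 (filterByExpr with minimum count 10 and minimum total 15, TMM factors of 0.733 to 2.36, robust quasi-likelihood F test, two-sided) on all 12 libraries, and p-values were adjusted over all 13115 tested genes. The SE of an edgeR log2 fold change was its absolute value over the square root of its F statistic. The procedure was tested on simulated data. Alternatives were DESeq2 1.42.0, limma-voom 3.58.1 with quality weights, upper-quartile or RLE factors in place of TMM, TMM without acinar genes, no filter, CPM above 1 in 6 libraries, the replicate number as a block, the mean log2 CPM of acinar markers (prior count 2) as a covariate, a lowess offset (span 0.3) over the annotated transcript length in GENCODE M21, each library left out, and IgG 5 and IgG 6 left out together. Transcript length was the lower median over a gene's basic protein-coding transcripts. Copies were sought with blastn among the GENCODE M21 transcripts. Within groups, no pair of libraries agreed within sampling noise (30 pairs).

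The members, gene lists and alternatives were chosen with earlier results of these data known. Values are given for members past the test, the 3 nuclear members with the smallest p and the 1 with the lowest fold change in each complex, the mitochondrial members, tissue-restricted isoforms, 10 core subunits, and the 2 genes with the smallest p in each list outside the rule. Ndufa4, Ndufs8 and the DESeq2 calls of those lists were named after their values were seen.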

Additional observations from a re-analysis of the deposited data

Results flagged for a closer look

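In 2 of the 70 groups of 6 libraries examined, a library lay far from the rest. Chance alone flags about 1 in 20 groups. For mt-Cytb, anti-CD3 3 (27172 normalized counts) stood above the other anti-CD3 libraries by 0.784 of the group's whole range, beyond Dixon's critical value for 6 samples. For Uqcrc1, IgG 1 (636 normalized counts) stood above the other IgG libraries by 0.638 of that range. Without IgG 1, the log2 fold change of Uqcrc1 was 0.28, against 0.12 with all 12 libraries.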

How the results depend on the processing

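Against 2 members called by edgeR, the count was 27 with DESeq2, 19 without a filter, 1 with RLE factors, upper-quartile factors or the length offset, and 0 with the replicate block, the acinar covariate or without IgG 5 and IgG 6, and it ran from 0 to 22 when 1 library was left out. Against 10 of all genes, it was 469 with DESeq2, 167 without a filter, 44 with limma-voom, 6 with upper-quartile factors, 3 with the length offset, 1 without IgG 5 and IgG 6, 0 with the block or covariate, and 0 to 203 with 1 library left out, where the highest count again came without anti-CD3 2. The lists outside the rule had 0 calls, and 6 with DESeq2, 3 without a filter and 0 to 2 with 1 library left out. The nuclear median of 0.55 kept its direction under every alternative run. It moved by more than 0.249, the pooled SD of the index of single libraries, only with the length offset, to 0.29. With the acinar covariate it was 0.41, and with 1 library left out it ran from 0.47 to 0.63. The mitochondrial median lay between 0.00 and 0.33.

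Values near zero changed sign. With limma-voom mt-Nd5 was -0.0848 and mt-Nd6 -0.0326. With the acinar covariate mt-Nd2 was -0.0453, mt-Nd4 -0.12, mt-Nd5 -0.11, mt-Nd6 -0.17 and Ndufa10 -0.0961. With the length offset mt-Nd2 was -0.0122, mt-Nd6 -0.19, Sdhc -0.00913 and Cox5a -0.0719. Without IgG 5 and IgG 6, mt-Nd4 was -0.00427, mt-Nd6 -0.0246 and Ndufa10 -0.0247. With 1 library left out, Ndufa4l2 ran from -0.14 (without anti-CD3 1) to 0.52, mt-Nd5 from -0.0541 (without IgG 1) to 0.21, with -0.00199 without anti-CD3 3 and -0.00248 without IgG 6, and Atp5s from -0.29 to 0.0883 (without IgG 1), with 0.0161 without IgG 4. The cause was not tested.

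The labels do not say whether same-numbered libraries of both groups share anything beyond the number. Their deviations correlated at 0.06, 0.13, 0.55, -0.20, -0.29 and 0.54, and 2 of 6 correlated best with their own number. The block left 0 members and 0 genes called. Low counts limit Atp5s, Ndufa4l2 and mt-Co3.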
